A study of Mus musculus with 16 samples.

Results

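The receptors and ligands that give T cells their second, costimulatory signal were followed in hamstring muscle RNA of mice with myositis induced by histidyl-tRNA synthetase (HRS), the autoantigen of the anti-Jo-1 antibody. The set held 10 genes, taken by gene symbol from the 26382 rows of the table of normalized counts. It comprised *Cd28*, *Icos*, *Cd80*, *Cd86*, *Cd40*, *Cd40lg*, *Tnfrsf4*, *Tnfrsf9*, *Cd27* and *Cd70*, and each symbol matched 1 row. The 16 libraries came from muscle of 9 female C57BL/6 mice aged 8 to 10 weeks, collected 14 days after intramuscular injection. In 5 mice (m862 to m866) the left hamstring received recombinant HRS at 3 to 5 mg/mL (HRS legs) and the right hamstring received PBS (contralateral PBS legs). In 2 further mice (m867 and m868) both hamstrings received PBS, which gave 4 PBS-only legs. Another 2 mice (m860 and m861) gave 1 library each after immunization with a fusion protein of HRS and MBP at 2 to 3 mg/mL by title, although their treatment field reads 3 to 5 mg/mL (HRS-MBP). No group received MBP alone, and the side of the HRS-MBP muscle was not given. Because HRS was always on the left, side and treatment cannot be told apart in the paired legs. The 4 PBS-only legs were 2 legs each of 2 animals and not 4 independent mice. The injection protocol describes both hamstrings being injected with HRS, whereas the titles place HRS in 1 leg, and the titles were followed.

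A T cell that recognizes its antigen needs a second signal to expand and to produce cytokines. CD28, on resting T cells, receives this signal from CD80 and CD86 on antigen-presenting cells, and ICOS, a relative of CD28 that appears after activation, receives it from the ICOS ligand. Members of the TNF receptor family add to it: OX40 (*Tnfrsf4*), 4-1BB (*Tnfrsf9*) and CD27 (*Cd27*) act on the T cell side, with CD70 as the ligand of CD27, while CD40 on B cells, dendritic cells and macrophages is engaged by CD40 ligand on activated T cells. Inflamed muscle contains both partners of these pairs, T cells and antigen-presenting cells, among muscle fibers that normally express little of either.

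Sequencing depth, as implied by the smallest step between low values, was 37.3 to 73.9 M reads in HRS legs, 24.7 to 72.8 M in contralateral PBS legs, 8.60 to 40.7 M in PBS-only legs and 37.3 and 39.6 M in the HRS-MBP libraries. Muscle genes were abundant in every library, although 3 of 8 skeletal muscle markers were called lower in HRS legs than in contralateral legs, as were 6.27% of all genes tested, and the log2 fold changes of all 8 ran from -1.62 for *Myh2* to -0.51 for *Des* (limma adjusted p = 0.076, not called). The sum of 10 T cell markers was 22.1 to 144 in HRS legs, 112 and 158 in HRS-MBP libraries and 3.53 to 6.13 in the 9 PBS libraries, with none of the 10 at 0 in all PBS libraries. The HRS leg of m866 had the lowest T cell and macrophage sums of the 7 HRS libraries and a mitochondrial share of 11.1%, within the contralateral range of 9.69% to 11.2%. In such bulk RNA, fewer cells of a type and less RNA per cell cannot be told apart. The mean of 8 members reached 0.5 normalized counts over the 16 libraries, and these were tested by limma, whereas *Cd40lg* and *Cd70* fell under this limit. *Icos*, *Cd80*, *Tnfrsf9* and *Cd27* passed it only through the libraries with HRS. A gene was called changed at an adjusted p below 0.05 with an absolute log2 fold change above 1.

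Compared with the contralateral PBS legs, *Cd40*, *Tnfrsf9*, *Cd86*, *Icos*, *Cd80* and *Cd27* were called higher in HRS legs, which is 6 of the 8 members tested, where 16.9% of all 16414 genes tested were called higher and 23.2% were called in either direction. The same 6 genes were called higher against the PBS-only legs, where 18.9% of all genes tested were called higher and 24.8% in either direction, and with all 7 HRS libraries set against all 9 PBS libraries, where 18.6% were and 25.7% were called in either direction. Their lowest HRS library lay above the highest of the 9 PBS libraries in each case, a separation that 15.4% of all genes tested showed. Such separation was shown by 18.3% of them between HRS and contralateral legs and by 26.6% between HRS and PBS-only legs. These 3 comparisons share libraries and are not separate evidence. *Icos*, *Cd80*, *Tnfrsf9* and *Cd27* passed the filter only through the libraries with HRS, so their calls and separation were partly fixed by it. With no filter, 6 of 10 members were called higher in HRS against contralateral legs, where 10.8% of all 26382 genes were. The median log2 fold change of the tested members in HRS against contralateral legs was 2.03, beside 0.08 for all genes tested. This median was also partly fixed by the filter, which left out *Cd40lg* (0.60 with no filter) and *Cd70* (0.08 with no filter).

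**Figure D1:**
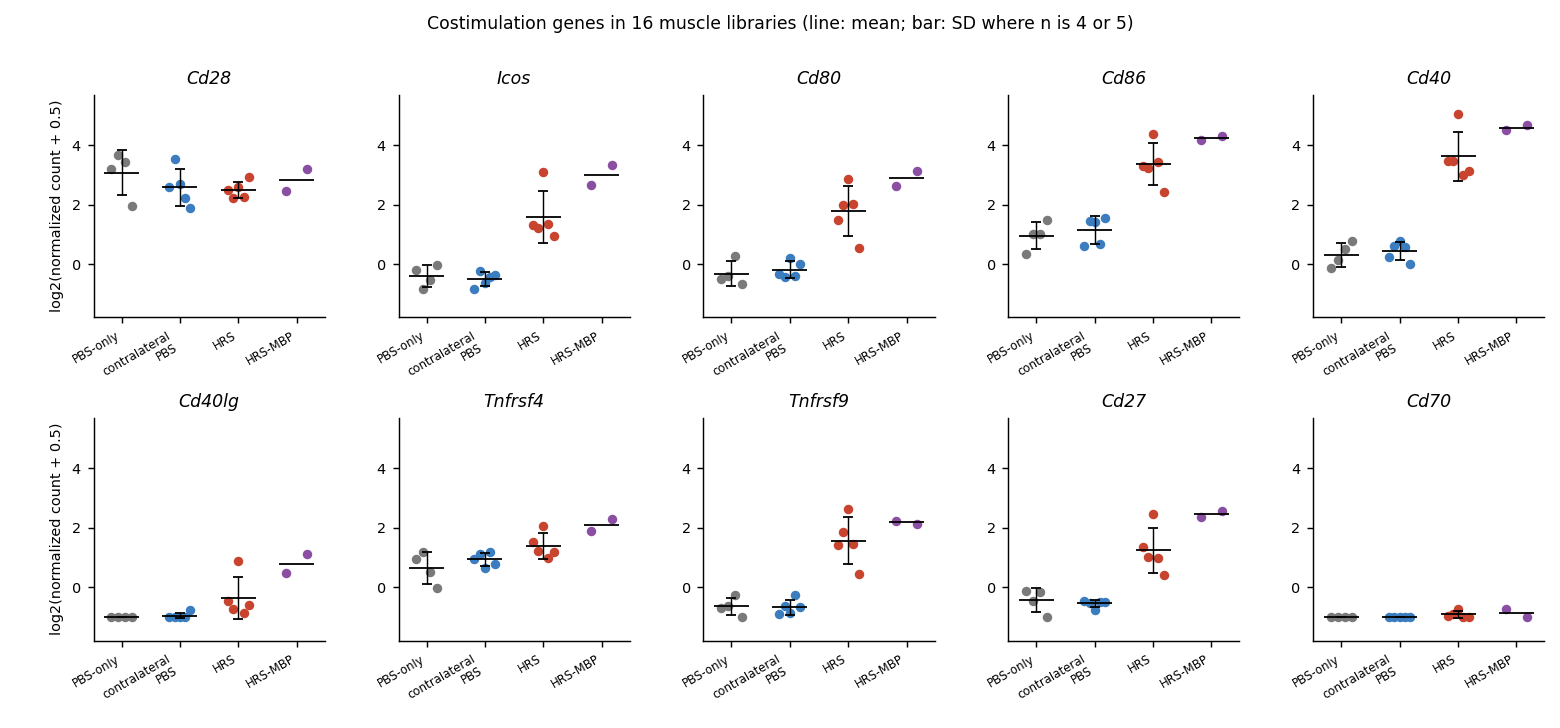
Level of each of the 10 genes as log2(normalized count + 0.5) on the vertical axis in every library, grouped as PBS-only legs (n = 4), contralateral PBS legs (n = 5), HRS legs (n = 5) and HRS-MBP libraries (n = 2); points are libraries, horizontal lines are means and bars are SD. *Cd28* overlaps in all groups, whereas 6 genes have every HRS library above every PBS library and *Cd40lg* and *Cd70* lie at or near 0 in PBS muscle.

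*Cd80* and *Cd86* encode the B7 ligands of CD28. *Cd86* (chromosome 16, 36603869 to 36666081, minus strand, GRCm38) was at 9.44, 8.97, 20.5, 10.3 and 4.86 normalized counts in the HRS legs of m862 to m866. The contralateral legs of the same mice had 1.03, 2.26, 2.17, 1.09 and 2.45. The PBS-only legs had between 0.768 and 2.31 and the HRS-MBP libraries 17.7 and 19.4. Every HRS library was thus above every PBS library, with m864 the highest and m866 the lowest leg. The mean was 6.02-fold higher in HRS legs than in contralateral legs (10.8 ± 5.80 against 1.80 ± 0.685; SD, n = 5 each), and the log2 fold change was 2.22 (SE 0.31, limma adjusted p = 5.8e-05). Without the HRS leg of m864 the *Cd86* mean was 4.67-fold higher. *Cd80* (chromosome 16, 38455561 to 38496335, plus strand) was less abundant, at 2.32, 3.42, 6.77, 3.52 and 0.966 in the HRS legs. The contralateral legs had 0.288, 0.231, 0.647, 0.265 and 0.512, and the PBS-only legs 0.121 to 0.717, the lowest of which rested on 1 read. The 2 HRS-MBP libraries had 5.62 and 8.34. The leg of m866 again came closest to the PBS values. The *Cd80* mean was 8.76-fold higher in HRS than in contralateral legs, with a log2 fold change of 1.97 (SE 0.33, limma adjusted p = 0.00026). Without the HRS leg of m864 the *Cd80* mean was 6.59-fold higher.

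*Cd28* and *Icos* encode the receptors of this family and lie near each other on chromosome 1 (60716800 to 60773359 and 60977927 to 61000320, both on the plus strand), but they differed in their pattern. *Cd28* was at 5.10, 4.20, 5.52, 4.27 and 7.04 in the HRS legs and at 5.54, 11.1, 5.96, 4.12 and 3.20 in the contralateral legs. It was 12.3 and 8.73 in the right and left legs of m867, 3.40 and 10.3 in those of m868, and 5.05 and 8.63 in the HRS-MBP libraries. The 4 groups overlapped, and the highest values were in PBS muscle. The log2 fold change in HRS against contralateral legs was -0.09 (95% interval -0.78 to 0.60, limma adjusted p = 0.83), so that a rise of the size seen for *Icos* lay outside the interval. Under scaling to equal totals the same value was 0.29, and the median of all genes moved from 0.08 to 0.46 with it, so the sign of *Cd28* depended on the scaling while its position below the median of all genes was shared by both. Against the PBS-only legs *Cd28* had a log2 fold change of -0.57 (adjusted p = 0.16), and with quantile normalization it was called lower (-1.04, adjusted p = 0.018).

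*Icos* was at 1.97, 1.79, 8.15, 2.07 and 1.40 in the HRS legs and at 0.0641, 0.346, 0.139, 0.235 and 0.269 in the contralateral legs. The PBS-only legs had 0.0568 to 0.485 and the HRS-MBP libraries 5.78 and 9.50. The PBS values rested on 2 to 21 reads per library. All HRS libraries were above all PBS libraries, and the leg of m864 stood apart from the other 4 HRS legs. The mean was 14.6-fold higher in HRS legs (3.07 ± 2.85 against 0.211 ± 0.111; SD, n = 5 each) and 8.58-fold higher without the leg of m864, with a log2 fold change of 2.09 (SE 0.33, limma adjusted p = 0.00017). *Icos* overlaps *Gm37039*, a transcript model on the same strand, with which it may share reads. Fold changes of such low genes are understated on the log2(normalized count + 0.5) scale.

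*Cd40* (chromosome 2, 165055627 to 165072948, plus strand), the receptor through which T cells license antigen-presenting cells, had the largest log2 fold change of the members tested in this comparison. It was at 10.6, 10.5, 32.7, 7.39 and 8.26 in the HRS legs and at 0.673, 1.04, 1.20, 1.0 and 0.512 in the contralateral legs. The PBS-only legs had 0.404 to 1.21 and the HRS-MBP libraries 22.4 and 24.8. The lowest HRS library had 7.39 and the highest PBS library 1.21, and the leg of m866 was not the lowest here, unlike for the other 5 genes. The mean was 15.7-fold higher in HRS legs than in contralateral legs and 10.4-fold higher without the HRS leg of m864, with a log2 fold change of 3.17 (SE 0.32, limma adjusted p = 3.6e-06).

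*Cd40lg* (chromosome X, 57212143 to 57224042, plus strand), the ligand of CD40 on activated T cells, was nearly absent from PBS muscle. It was at 0.220, 0.0972, 1.36, 0.0534 and 0.156 in the HRS legs, on 15, 9, 76, 3 and 5 reads. A contralateral leg, that of m866, held 3 reads, and the 8 other PBS libraries held 0. The HRS-MBP libraries had 0.876 and 1.67. Pooled over libraries, 108 reads in HRS legs against 3 in contralateral legs gave a depth-adjusted ratio of 21.8 (95% interval 7.26 to 107, counting error only), which was 7.91 without the HRS leg of m864. By an exact two-sided permutation test of single libraries, the difference had p = 0.016 for HRS against contralateral legs and p = 0.00035 for all HRS against all PBS. These tests treat legs of 1 mouse as independent. Each of the 5 mice had more in its HRS leg than in its PBS leg, and the exact sign-flip p within mice was 0.0625, the smallest that 5 mice can give.

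*Tnfrsf9*, *Cd27* and *Tnfrsf4* encode the TNF family receptors 4-1BB, CD27 and OX40. *Tnfrsf9* (chromosome 4, 150914562 to 150946102, plus strand) was at 2.18, 3.15, 5.63, 2.24 and 0.872 in the HRS legs and at 0.0320, 0.148, 0.0462, 0.323 and 0.135 in the contralateral legs. The PBS-only legs had 0 to 0.326 and the HRS-MBP libraries 4.16 and 3.89. No PBS library held more than 11 reads, and none overlapped with the HRS libraries. The mean was 20.5-fold higher in HRS legs than in contralateral legs, with a log2 fold change of 2.23 (SE 0.30, limma adjusted p = 3.7e-05). It was 31.2-fold higher without the contralateral leg of m865 and 15.4-fold higher without the HRS leg of m864. *Tnfrsf9* overlaps *Camta1* on the opposite strand. Whether reads were counted by strand is not given in the sources used here. *Camta1* was at 16.7 ± 6.93 in HRS legs and 28.9 ± 4.93 in contralateral legs (SD, n = 5 each), and its part in the *Tnfrsf9* values was not tested.

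*Cd27* (chromosome 6, 125232622 to 125237010, minus strand), which marks many T cells already before activation, was at 2.04, 1.52, 5.00, 1.48 and 0.841 in the HRS legs. The contralateral legs had 0.224, 0.198, 0.0924, 0.206 and 0.215, and the PBS-only legs 0 to 0.404. The HRS-MBP libraries had 4.66 and 5.47. The groups with and without HRS did not overlap. The mean was 11.6-fold higher in HRS legs than in contralateral legs and 7.86-fold higher without the HRS leg of m864. The log2 fold change was 1.79 (SE 0.29, limma adjusted p = 0.00020). With a pseudocount of 2 the log2 fold change was 0.86 and no longer passed the fold threshold. *Cd27* overlaps *Vamp1* on the opposite strand, which was at 24.2 ± 7.83 in HRS legs and 39.7 ± 4.16 in contralateral legs. It also overlaps the microRNA gene *Mir8113* on its own strand. *Cd70* (chromosome 17, 57145997 to 57149777, minus strand), the ligand of CD27, was at 0 in all 9 PBS libraries and in 3 of the 7 HRS libraries. The other 4 HRS libraries held 1, 3, 6 and 5 reads, for a total of 15 reads. By exact permutation, *Cd70* in all HRS against all PBS libraries had p = 0.038, which was 0.051 to 0.088 when any of the 9 PBS libraries or any of the 4 HRS libraries with reads was left out. In HRS against contralateral legs the exact p was 0.17.

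*Tnfrsf4* (chromosome 4, 156013843 to 156016612, plus strand), which encodes OX40, showed a smaller difference. It was at 2.35, 1.81, 3.70, 1.46 and 1.75 in the HRS legs and at 1.41, 1.65, 1.06, 1.79 and 1.21 in the contralateral legs. The PBS-only legs had 1.76, 1.42, 0.485 and 0.913, and the HRS-MBP libraries 3.20 and 4.36. HRS and contralateral legs overlapped, and the leg of m865 was lower on the HRS side. The log2 fold change was 0.46 (95% interval -0.06 to 0.97, limma adjusted p = 0.11), against the PBS-only legs it was 0.74 (adjusted p = 0.021), and for all HRS against all PBS libraries it was 0.78 (adjusted p = 0.0035), both under the fold threshold. Scaling to equal totals raised the last 2 to 1.05 and 1.12, past the threshold. *Tnfrsf4* passed both thresholds in the comparison of HRS-MBP libraries with PBS-only legs (log2 fold change 1.44), but not the fold threshold there with a pseudocount of 2 (0.89) or with quantile normalization (0.87).

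The promoters of the members give a view of sequence that the counts do not. RefSeq windows of 300 bases on GRCm38.p6, from 250 bases before to 50 bases after a transcription start, were found for 4 of the 10 members in the table used. The windows of 3 of the 6 members that rose together and that of *Tnfrsf4* are shown 5′ to 3′, with capitals marking matches on either strand to TTCNNNGAA (a STAT-type motif), to GGG and CC with 5 bases of any kind between them (an NF-kB-type motif) or to GAAA and GAAA with 2 bases of any kind between them (an IRF-type motif).
*Tnfrsf9* (chr4:150927749-150928048, plus strand): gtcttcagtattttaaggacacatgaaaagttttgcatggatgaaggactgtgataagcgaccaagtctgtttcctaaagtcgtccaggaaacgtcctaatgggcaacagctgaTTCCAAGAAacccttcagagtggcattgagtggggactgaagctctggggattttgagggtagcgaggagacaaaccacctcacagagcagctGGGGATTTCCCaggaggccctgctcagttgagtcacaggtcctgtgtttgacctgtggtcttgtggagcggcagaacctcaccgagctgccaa
*Cd27* (chr6:125236978-125237277, minus strand): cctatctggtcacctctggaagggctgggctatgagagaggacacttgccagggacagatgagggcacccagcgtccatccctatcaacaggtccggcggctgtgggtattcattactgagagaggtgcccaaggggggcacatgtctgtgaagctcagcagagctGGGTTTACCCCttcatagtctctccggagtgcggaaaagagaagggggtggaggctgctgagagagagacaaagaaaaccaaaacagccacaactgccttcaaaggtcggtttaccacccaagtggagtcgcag
*Cd80* (chr16:38458683-38458982, plus strand): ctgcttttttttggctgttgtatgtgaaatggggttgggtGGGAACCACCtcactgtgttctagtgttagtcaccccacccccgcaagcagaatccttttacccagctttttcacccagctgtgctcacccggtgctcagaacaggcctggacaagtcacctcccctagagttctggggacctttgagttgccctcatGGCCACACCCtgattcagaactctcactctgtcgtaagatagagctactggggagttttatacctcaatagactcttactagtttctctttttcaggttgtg
*Tnfrsf4* (chr4:156013445-156013744, plus strand): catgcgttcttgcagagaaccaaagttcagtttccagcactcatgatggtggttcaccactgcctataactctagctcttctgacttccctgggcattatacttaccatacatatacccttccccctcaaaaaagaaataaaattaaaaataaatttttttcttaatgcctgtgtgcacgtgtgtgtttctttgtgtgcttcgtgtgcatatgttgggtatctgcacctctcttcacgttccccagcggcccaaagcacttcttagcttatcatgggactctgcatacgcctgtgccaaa
In *Tnfrsf9* the STAT-type match began at -136 and overlapping NF-kB-type matches began at -43 and -42 relative to the start. A second *Tnfrsf9* start in the table had no match. *Cd27* had overlapping NF-kB-type matches at -84 and -83, and *Cd80* had separate matches at -210 and -52. The *Tnfrsf4* window held none of these letters. Of all 32851 promoter windows of this length, 50.8% held the NF-kB-type motif, 8.30% the STAT-type and 3.44% the IRF-type. A match is a description of the sequence and not evidence of binding.

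Within the 5 mice that carried both treatments, all 6 called genes had more on the HRS side in every mouse, as had 26.3% of all genes tested. The filter limit given above for *Icos*, *Cd80*, *Tnfrsf9* and *Cd27* applies here too. The smallest p that sign flips over 5 mice can give is 0.0625 (two-sided), which each of the 6 genes had. The size varied among mice, with log2 differences of 2.39 to 4.29 for *Cd40*, 1.31 to 3.76 for *Icos* and 0.54 to 2.66 for *Cd80*. For *Icos*, *Cd80*, *Cd86*, *Tnfrsf9* and *Cd27*, m864 had the highest and m866 the lowest HRS leg, an order seen for 22.8% of all genes tested. The T cell marker sums of the same legs were 144 in m864 and 22.1 in m866, with 40.8 to 57.7 in the others, and the part of these sums in the result was not tested. For *Cd28* the HRS leg exceeded the PBS leg in 2 of 5 mice, and its differences ran from -1.31 in m863 to 1.03 in m866. For *Tnfrsf4* it did so in 4 of 5. Each of the 6 was called in every fit that left out 1 library.

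**Figure D2:**
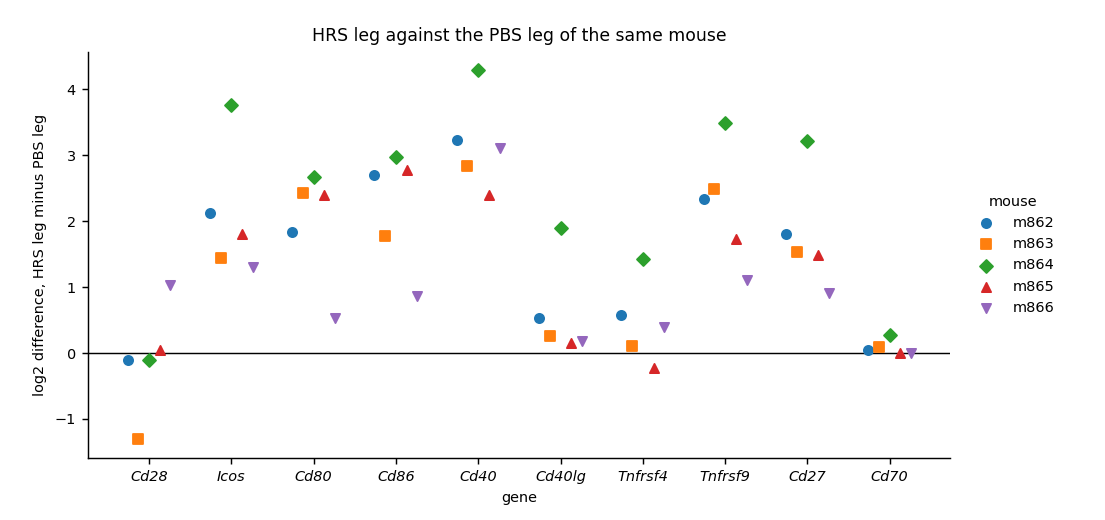
Log2 difference of the HRS leg minus the contralateral PBS leg, on log2(normalized count + 0.5), for each gene on the horizontal axis and each of the 5 mice (symbols). *Cd40*, *Icos*, *Cd80*, *Cd86*, *Tnfrsf9* and *Cd27* lie above 0 in 5 of 5 mice, whereas *Cd28* runs from -1.31 to 1.03.

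The contralateral PBS leg was compared with PBS-only muscle to ask whether the PBS-injected side of an immunized mouse differed from muscle of mice that never received HRS. Of the 8 members tested, 0 were called by limma, 0 had an unadjusted p below 0.05 and 0 were called by limma-voom, where 0.00609% of all genes tested were called and 5.5% had an unadjusted p below 0.05. The log2 fold changes ran from -0.49 for *Cd28* to 0.28 for *Tnfrsf4*. The 95% intervals reached 0.65 for *Icos* and 0.89 for both *Cd86* and *Cd80*, so that rises up to these sizes were not excluded. Within the PBS-only mice, where side could be read without HRS, the left leg minus the right leg differed by -0.28 in both mice for *Cd40* and by -0.66 and -0.49 for *Cd86*. For *Icos* the side difference was 0.63 in m867 and -0.50 in m868, and for *Cd28* it was -0.47 and 1.47. With 2 mice these are values without a test.

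In the HRS-MBP libraries, *Tnfrsf4* joined the other 6, and 7 of the 8 members tested were called higher than in PBS-only legs, where 20.7% of all genes tested were called higher and 30.9% in either direction. The log2 fold changes were 4.27 for *Cd40*, 3.39 for *Icos*, 3.29 for *Cd86*, 3.21 for *Cd80*, 2.92 for *Cd27*, 2.83 for *Tnfrsf9* and 1.44 for *Tnfrsf4* (limma adjusted p 3.7e-06 to 0.0023). *Cd28* had -0.24 (95% interval -1.19 to 0.71). *Icos*, *Cd80*, *Tnfrsf9* and *Cd27* again passed the filter only through the libraries with HRS. Set directly against the HRS legs, 0 of 8 members were called by limma or limma-voom, where 0.463% of all genes tested were called. All 8 estimates were above 0, from 0.34 for *Cd28* to 1.41 for *Icos*, and 6 had an unadjusted p below 0.05, as had 14.4% of all genes tested (adjusted p 0.18 to 0.74 over the 8). Without the HRS leg of m864, 4 members were called higher in HRS-MBP libraries: *Icos* (1.79), *Cd27* (1.53), *Cd80* (1.37) and *Cd40* (1.33). In the same fit the genes called among all tested went from 76 to 578, which is 3.53%, with 3.18% called higher. No member tested had both HRS-MBP libraries above all 5 HRS legs, as 7.1% of all genes tested had. Agent, concentration and animals differed together between these groups and cannot be told apart.

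**Figure D3:**
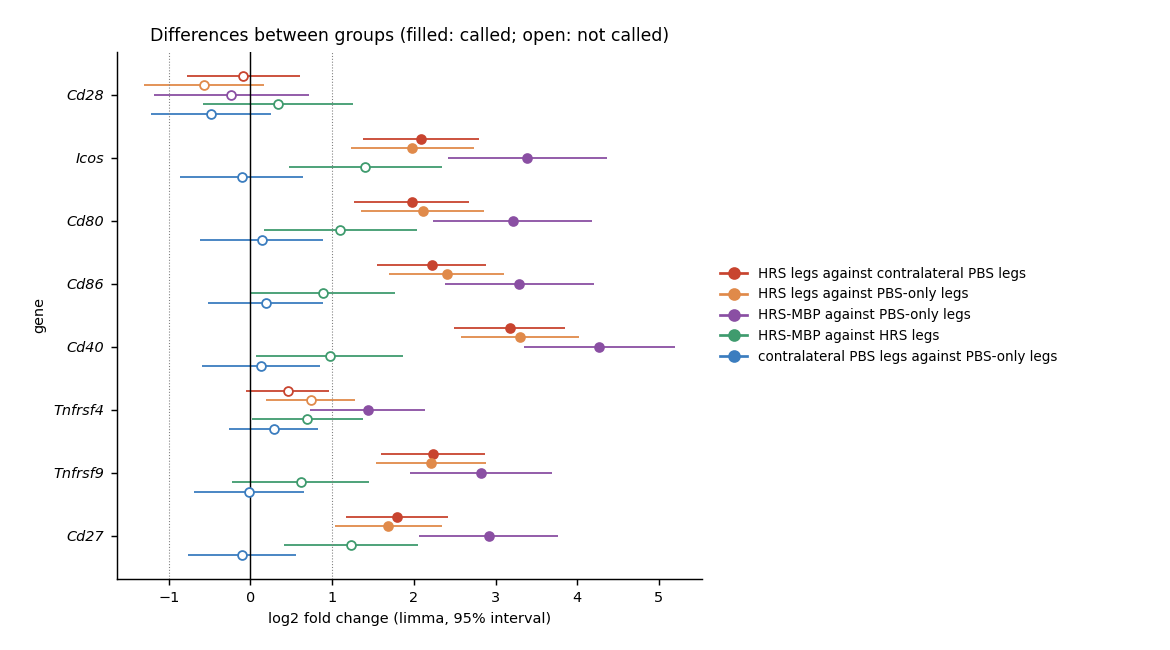
Log2 fold change (horizontal axis, limma) with 95% interval for the 8 members tested in 5 comparisons (colors); filled points were called and open points were not, and dotted lines mark -1 and 1. The comparisons with PBS muscle are filled for 6 or 7 genes, *Cd28* is open throughout, and the contralateral against PBS-only values lie around 0.

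Level per exon length allowed the genes to be set beside each other. In units of normalized count per kb of exon, the 7 HRS libraries had means of 4.89 ± 2.90 for *Cd40* and 3.56 ± 1.66 for *Cd86*. *Tnfrsf4* followed at 1.95 ± 0.810, and *Cd27*, *Icos*, *Cd80* and *Tnfrsf9* lay between 1.16 and 1.29, which is less than their spread. *Cd28* was at 0.929 ± 0.262, *Cd40lg* at 0.506 ± 0.534 and *Cd70* at 0.0435 ± 0.0569. In the 9 PBS libraries the order was another one, with *Cd28* at 1.17 ± 0.570 and *Tnfrsf4* at 0.952 ± 0.315 above *Cd86* at 0.457 ± 0.174. The remaining members were at 0.246 or less in PBS muscle.

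**Figure D4:**
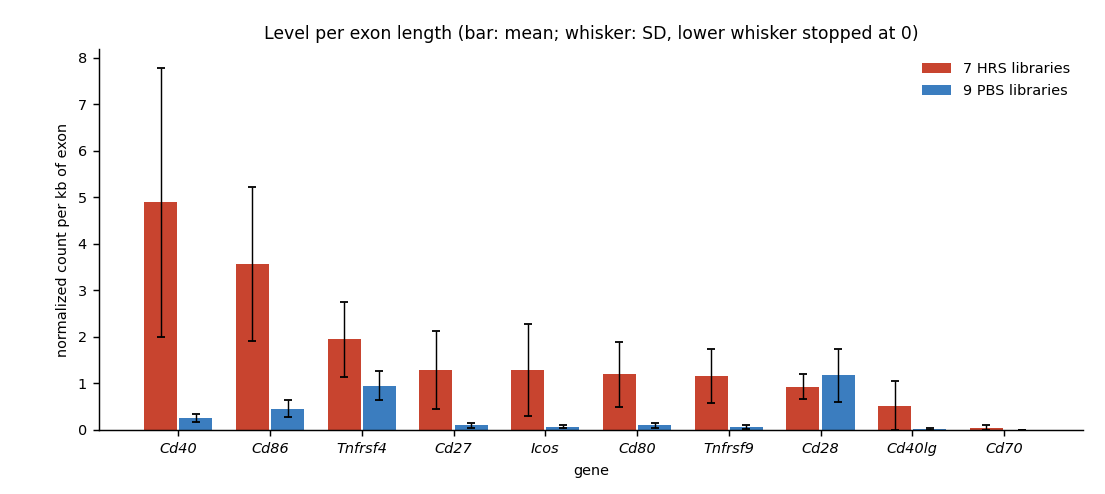
Mean normalized count per kb of exon (vertical axis) in the 7 HRS and the 9 PBS libraries, with SD whiskers stopped at 0, for the 10 genes ordered by their HRS mean. *Cd28* and *Tnfrsf4* lead in PBS muscle at 1.17 and 0.952, and *Cd40* and *Cd86* lead with HRS at 4.89 and 3.56.

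Each receptor of T cells was also set against the sum of *Cd3d*, *Cd3e* and *Cd3g*, the invariant chains of the T cell receptor complex, which were higher with HRS. The ratio of *Cd28* to this sum ran from 0.153 to 1.22 with HRS (7 libraries) and from 3.31 to 18 in PBS muscle (9 libraries). The ratio of *Tnfrsf4* was 0.102 to 0.303 with HRS and 0.639 to 2.92 in PBS muscle. Neither overlapped, and both were lower with HRS on the log2 scale (exact two-sided permutation p = 0.00017 for each, the smallest that 7 against 9 libraries can give). Such a ratio sets a gene's change against that of the CD3 genes. Neither *Cd28* nor *Tnfrsf4* was called in all HRS against all PBS, while the CD3 genes were higher. The lower ratios largely restate the higher CD3 sum and are no separate evidence on *Cd28* or *Tnfrsf4* itself. In PBS libraries *Cd28* had more normalized counts than the 3 CD3 genes together. For *Icos* the ratio was 0.151 to 0.261 with HRS and 0.0488 to 0.750 in PBS muscle, with medians of 0.226 and 0.278. *Tnfrsf9* had medians of 0.156 and 0.139, *Cd27* of 0.157 and 0.240. These 3 were lower with HRS when 0.5 was added to both terms (exact permutation p = 0.00052, 0.0017 and 0.00017), but not as plain ratios (p = 0.37, 0.64 and 0.16, a choice made after seeing the data). *Cd40lg* likewise had a lower ratio with 0.5 added (exact permutation p = 0.00017) and not as a plain ratio (p = 0.22). The ratio of *Ctla4*, an inhibitory receptor of the same family, was 0.0657 to 0.141 with HRS and 0 to 0.222 in PBS muscle, lower with 0.5 added (exact permutation p = 0.00017) and not as a plain ratio (p = 0.98). The CD3 sum of PBS muscle was itself near the added 0.5, and no order is read from these 5 ratios. With the 3 ratios to macrophage genes, 10 such ratios were tested, the p-values are unadjusted, and legs of 1 mouse were permuted as independent. Within mice, 0 of 5 had a higher ratio of *Cd28* or *Tnfrsf4* in the HRS leg (exact sign-flip p = 0.0625 for each).

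The ligands and *Cd40* were set against the mean of 8 macrophage markers, all of which passed the test as higher in HRS legs (median 3.23 on the log2 scale, from 1.53 for *Mrc1* to 4.13 for *Adgre1*), where 16.9% of all genes tested were called higher. The ratio of *Cd86* was 0.0190 to 0.0346 with HRS and 0.0397 to 0.0769 in PBS muscle, without overlap (exact permutation p = 0.00017 with 0.5 added and as a plain ratio). *Cd86* thus rose less than this mean of counts, to which the most abundant markers contribute most. Its log2 fold change of 2.22 in HRS against contralateral legs lay below the median of the 8 markers but above that of *Mrc1*. Within mice, 0 of 5 had a higher *Cd86* ratio in the HRS leg (exact sign-flip p = 0.0625). The ratio of *Cd80* was 0.00687 to 0.0149 with HRS and 0.00405 to 0.0272 in PBS muscle, lower with 0.5 added (exact permutation p = 0.00017) but not as a plain ratio (p = 0.15). That of *Cd40* was 0.0208 to 0.0587 with HRS and 0.0138 to 0.0443 in PBS muscle (exact permutation p = 0.12 with 0.5 added and 0.28 as a plain ratio). Dendritic cell markers (6 of 8 called higher, median 2.10, from 0.08 for *Cd209a* to 4.13 for *Itgax*) and B cell markers (4 of 5 tested, median 1.28, from 0.99 for *Pax5* to 1.90 for *Cd79b*) moved with the same libraries, beside the same 16.9% of all genes tested, and their part in these ratios was not tested. All 6 NK cell markers were called higher too (median 2.49, from 2.12 for *Ncr1* to 3.23 for *Klrk1*). Their part in the levels of the members was not tested.

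**Figure D5:**
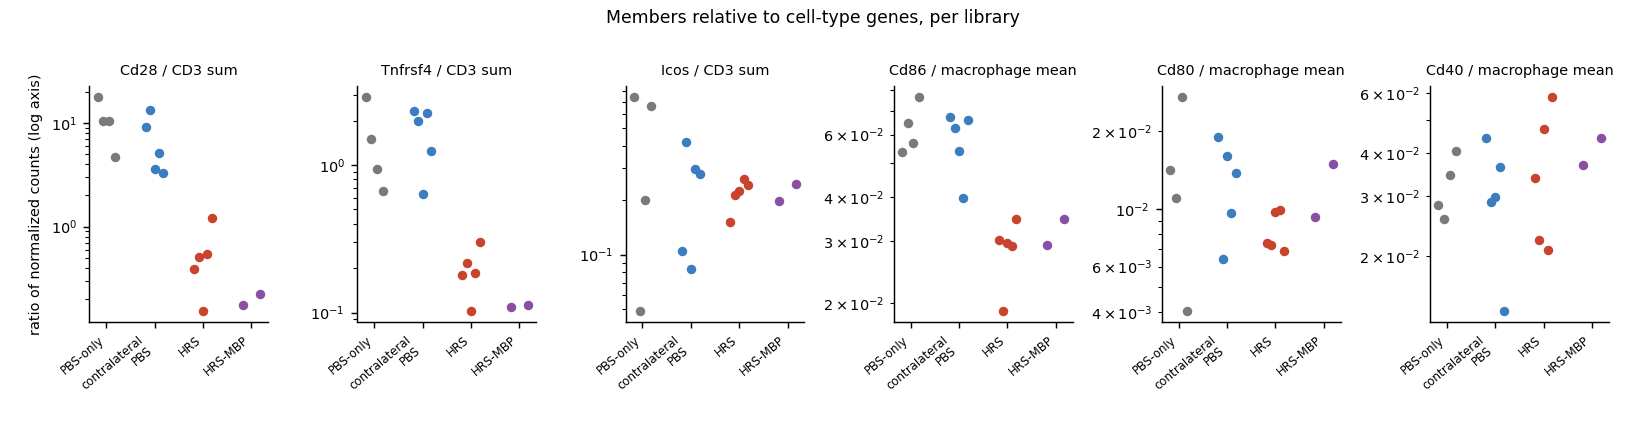
Ratio of normalized counts per library (points, log axis) of *Cd28*, *Tnfrsf4* and *Icos* to the sum of 3 CD3 genes and of *Cd86*, *Cd80* and *Cd40* to the mean of 8 macrophage markers, in the 4 groups. *Cd28*, *Tnfrsf4* and *Cd86* separate HRS from PBS libraries, and the other 3 overlap.

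The partners of these genes were read from a wider list of 18 costimulatory ligands and receptors. In HRS against contralateral legs 14 of the 16 tested were called higher, beside 16.9% of all genes tested, and their log2 fold changes, with the median at 1.68, ran from 0.85 for *Tnfrsf8* (CD30) up to 2.85 for *Cd48*, a ligand of the CD2 family. *Icosl*, the ICOS ligand, was at 6.76 to 16.6 in HRS legs and 2.36 to 3.82 in contralateral legs (log2 fold change 1.43, limma adjusted p = 8.2e-05). *Ctla4*, the inhibitory receptor that competes with CD28 for CD80 and CD86, was at 0.694 to 2.64 in HRS legs and 0.0320 to 0.176 in contralateral legs (1.45, adjusted p = 0.00055). *Tnfsf9*, the ligand of 4-1BB, was at 0.808 to 2.31 and 0.263 to 0.878, with a log2 fold change of 0.95 (adjusted p = 0.0035) that fell short of the fold threshold. *Tnfsf4*, the OX40 ligand, was under the limit for testing, with 23 reads in HRS legs and 1 in contralateral legs. Of the genes that carry the CD28 signal inward, 10 of 17 tested were called higher (median 1.48), from -0.47 for *Prkcq*, a kinase also expressed in muscle, to 3.77 for *Lck*. Of the genes that carry TNF receptor signals, 6 of 17 were called higher (median 0.76), from -0.09 for *Traf6* to 3.41 for *Traf1*, an adaptor of several of these receptors. Of the T cell markers, 9 of 10 were called higher (median 2.60). *Cd4* had 4.0, *Cd8a* 2.76 and *Cd3e* 2.11, whereas *Cd247*, the CD3 zeta chain, had 0.64 (adjusted p = 0.058). *Cd8a* (0 to 0.277 in PBS libraries), *Ctla4* (0 to 0.196), *Cd3d* and *Cd3g* passed the filter only through the libraries with HRS. The counts and medians of the partner and T cell lists, and the test of *Ctla4*, were thus partly fixed by the filter. The 3 regulatory T cell markers ran from -0.36 for *Ikzf2* to 0.83 for *Foxp3* (adjusted p = 0.0048), all under the fold threshold. In HRS-MBP against PBS-only legs 2 of the 3 were called higher (*Foxp3* 1.47, limma adjusted p = 0.0011), beside 20.7% of all genes tested. In all HRS against all PBS it was 1 (*Foxp3* 1.03, limma adjusted p = 0.00011), beside 18.6%.

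Across the 16 libraries, the genes whose log2 levels were most like each member were recorded as a description; all libraries share the same groups, so that any gene that follows HRS correlates with any other. For *Icos* they included *Cd6* and *Klrb1b* (Pearson r 0.99 for each). For *Cd86* they were *Stxbp2*, *Selplg* and *Pld4* (0.99 for each), and for *Cd40* *Slamf8*, *Fpr2* and *Slc2a6* (0.99 for each). *Cd80* was most like *Trip13*, *Synj1* and *Sirpb1a*, *Tnfrsf9* most like *Cyp4f18*, *Vasp* and *Fes*, and *Cd27* most like *Sytl3*, *Apol7e* and *Acp2* (0.99 for each). *Tnfrsf4* was most like *Cd247* (0.97), *Ik* (0.94) and *Grk2* (0.93). *Cd28* stood apart from the others, since its closest genes were *Kmt2d*, *Usp34* and *Tnfrsf21* (0.87 for each) and its correlation with *Cd3e* was -0.04.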

How the data were processed

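Poly(A) RNA of mouse hamstring muscle was sequenced from directional libraries. The deposited table held normalized counts, a signal that is never negative, made by the authors with a normalization not given in the sources used here. The submitters' processing notes name STAR 2.7.8a, limma and the builds mm39 and GRCm39, whereas 98.94% of 25652 genes matched by symbol sat at their GENCODE M21 (GRCm38) positions, so GRCm38 coordinates are given. Between 74.9% and 77.0% of low values were whole multiples of 1 read (within 0.02 steps), so count models were not used, and reads quoted are such multiples. The interval of the pooled reads covers counting error only, and limma intervals rest on the spread between libraries.

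The 16414 of 26382 genes whose average over the 16 libraries reached 0.5 were tested with limma 3.58.1 in R 4.3.3 on log2(normalized count + 0.5), with a mean-dependent prior and Benjamini-Hochberg adjustment over all genes tested. The 4 groups shared 1 fit, and all HRS against all PBS was fitted with 2 groups. Single values and ratios were tested by exact two-sided permutation in Python 3.11.15. The limma fits were tested on simulated data with changes planted only in genes of higher mean level. *Icos*, *Cd80*, *Tnfrsf9* and *Cd27* lay below those levels, and that simulation held no permutation or ratio tests. Alternatives covered pseudocount, filter, scaling, limma-voom, the mouse as a block, exact rank tests and leaving out each library. Legs of 1 mouse are paired by animal, although deviations of paired legs correlated at 0.12, 0.16, 0.10, -0.03 and -0.37 in m862 to m866. Several sequencing instruments were named without saying which library ran on which, and p-values measure the spread between these libraries. The text names all 10 members, the 4 direct partners *Icosl*, *Tnfsf4*, *Tnfsf9* and *Ctla4*, the T cell genes *Cd3e*, *Cd4* and *Cd8a*, the lowest and highest gene of each list used and the 3 genes most like each member, of which 1 is not reported here. *Cd247*, *Camta1* and *Vamp1* were added with their values known. The members and lists were chosen with earlier results of these data known. Every column of per-sample values was mapped to a sample and used.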

Additional observations from a re-analysis of the deposited data

Results flagged for a closer look

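A gap test for 1 library apart from the rest of its group (Dixon's test) was run over 27 sets of values of the 10 genes in groups of 4 or 5 libraries. Its nominal chance rate of about 1 in 20 assumes independent sets of normally distributed values. These sets share libraries and correlated genes and are normalized counts without a log scale, so that rate does not measure how unusual the marks are. The test marked 6, of which 1 was fixed by zeros. The HRS leg of m864 lay above the other 4 HRS legs for *Icos* (8.15, others 1.40 to 2.06 normalized counts), *Cd40* (32.7, others 7.39 to 10.6), *Cd40lg* (1.36, others 0.0534 to 0.220) and *Cd27* (5.00, others 0.841 to 2.04). The contralateral PBS leg of m864 lay below the others for *Cd27* (0.0924 on 2 reads, others 0.198 to 0.224). The contralateral leg of m866 was the only one of its group with *Cd40lg* (0.0808 on 3 reads). The other 4 values were 0, so any single library with reads would have been marked, and the chance rate does not apply to it. The HRS leg of m864 also had the highest T cell marker sum of the HRS legs, and the part of this in the values was not tested.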

How the results depend on the processing

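The count of members called higher in HRS against contralateral legs was 6 without any 1 library, 6 with the mouse as a fixed block or random block, 5 with a pseudocount of 2 (11.8% of all genes tested called higher) and 4 of the 5 members left with a filter at a mean of 2 (16.6%). Against the PBS-only legs it was 5 (13.1%) and 4 (18.5%) with these, and 7 with equal totals (28.0%) or limma-voom (28.2%), which added *Tnfrsf4* (1.05 and 1.12), as they did in all HRS against all PBS (27.9% and 28.6%). In HRS-MBP against PBS-only legs it was 4 with that filter in place of 7 (2682 of 13402 genes), 6 with a pseudocount of 2 (2629 of 16414 genes) or with quantile normalization (15.3%), both of which lost *Tnfrsf4* (0.89 and 0.87), and 8 with no filter (13.7%) or a filter at 0.1 (17.9%), where *Cd40lg* was also called (1.79, limma adjusted p = 0.00089 with no filter). In HRS-MBP against HRS legs it was 0 to 4 when 1 library was left out, 4 without the HRS leg of m864, where calls over all genes tested rose from 76 to 578. Of the 1102 alternative values of 48 log2 fold changes of members, 1074 kept direction and side of the threshold. The replicate block changed no call of a member. Over all genes tested in HRS against contralateral legs, 2781 were called higher and 1029 lower, which became 4259 and 322 with equal totals and 2093 and 1632 with quantile normalization, where the median of all genes was -0.16.

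The log2 fold change of *Cd28* changed sign under several settings. In HRS against contralateral legs it was 0.29 with equal totals, 0.32 with limma-voom and -0.26 to 0.15 when 1 library was left out. In HRS-MBP against PBS-only legs it was 0.20, 0.22 and -0.61 to 0.12, in HRS-MBP against HRS legs -0.023 to 0.69 when 1 library was left out, and in all HRS against all PBS 0.19 and 0.21. Without 1 library, contralateral against PBS-only values ran across 0 for 4 genes: -0.13 to 0.11 for *Tnfrsf9*, -0.020 to 0.36 for *Cd86*, -0.026 to 0.28 for *Cd40* and -0.26 to 0.019 for *Icos*. As plain ratios, *Cd40lg*, *Tnfrsf9* and *Ctla4* relative to CD3 genes differed by 0.0155, 0.0290 and 0.000632 and *Cd40* relative to macrophage genes by 0.00636, against lower values with 0.5 added, and *Cd40* by 0.078 on the log2 scale with 0.1 added. The size of the added constant relative to the PBS values differs between these settings by construction, and the other causes were not tested. With an exact rank test in place of limma and the same fold threshold, 6 members were called in all HRS against all PBS (18.5% of all genes tested called higher). *Tnfrsf4* passed the rank test itself (adjusted p = 0.0066) and not the fold threshold. Depth limits the PBS values of *Icos*, *Cd80*, *Tnfrsf9*, *Cd27*, *Cd40lg* and *Cd70*, several of which rest on fewer than 10 reads per library.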
